A study of Mus musculus with 6 samples.

Results

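The 10 genes described here encode the subunits of the transcription factor NF-kB and proteins that control its non-canonical arm. They are Nfkb1, Rela and Rel of the canonical arm, Nfkb2 and Relb of the non-canonical arm, the kinase gene Map3k14, the adaptor genes Traf1 and Traf3, and the ubiquitin ligase genes Birc2 and Birc3. They were chosen by symbol out of 37187 genes in the deposited tables, and all 10 were found and tested. The sequenced RNA came from regulatory T cells (Tregs), a suppressive kind of CD4 T cell, isolated as CD4+CD25+GITR+ cells from lymph nodes draining a B16.F10 melanoma, a transplantable mouse tumour line. The mice had received 300000 tumour cells subcutaneously, and the nodes were collected on day 14. The 3 wild-type libraries (WT, replicates 1 to 3) came from C57BL6 mice, and the 3 knockout libraries (KO, replicates 4 to 6) from il33-/- mice on a C57BL6 background. All mice carried the tumour, so there is no tumour-free control, and the deletion was in the whole animal and not in Tregs alone. The sources used here do not give the age of the mice or say whether each library came from its own animal, so the spread behind each p-value is that between libraries and may be technical.

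NF-kB subunits pair up to bind DNA, and in resting cells they are kept out of the nucleus by IkB proteins. In the canonical arm, receptors for antigen, for TNF and for IL-1 family cytokines such as IL-33 activate the IKK kinases, which have IkB destroyed and free dimers of the Nfkb1, Rela and Rel products. In the non-canonical arm, a complex of TRAF and cIAP proteins keeps degrading the kinase NIK, encoded by Map3k14. TNF receptor family members such as OX40 take that complex away, NIK builds up, and the Nfkb2 product is trimmed to its active form and works with the Relb product. In Tregs the Rel and Rela products support Foxp3 expression and the effector state, and Nfkb2, Relb, Birc3 and Traf1 are themselves textbook targets of NF-kB. RNA levels do not report the nuclear movement or the processing of these proteins.

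Since several of these genes are textbook NF-kB targets, the DNA just before their start sites was searched for the kappa B consensus, the site that NF-kB dimers bind, on both strands. RefSeq promoter windows on GRCm38.p6, each with 250 bases before and 50 after a start site, existed for 8 of the 10 genes. The consensus was found for Rel, Nfkb2 and Traf3 and not for Rela, Birc2, Birc3, Traf1 or Map3k14. Among all 27025 genes with a window, 9.55% held it in at least 1 window. The stretches below are shown to set the 3 genes with a match beside the paralogs Birc2 and Birc3, and read 5′ to 3′ along the gene. Capitals mark kappa B matches, except in Birc2, where they mark the letters TGACGTCA.
Rel, chr11:23771020-23771079, minus strand: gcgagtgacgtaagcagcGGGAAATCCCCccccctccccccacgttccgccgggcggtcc
Nfkb2, chr19:46304695-46304724, plus strand: cacGGGAATTCCCCccctcggggggccgaa
Traf3, chr12:111166310-111166369, plus strand: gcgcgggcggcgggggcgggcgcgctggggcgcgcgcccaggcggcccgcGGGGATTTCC
Birc2, chr9:7837078-7837167, minus strand: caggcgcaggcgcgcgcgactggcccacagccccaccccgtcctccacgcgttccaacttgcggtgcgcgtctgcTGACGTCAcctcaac
Birc3, chr9:7873191-7873280, minus strand: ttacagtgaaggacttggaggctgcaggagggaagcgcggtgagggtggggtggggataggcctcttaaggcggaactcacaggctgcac
In the Rel and Nfkb2 stretches the capitals cover 2 overlapping matches each, of which the first fits the consensus on both strands. The first Nfkb2 window held 3 matches in all, and the whole stretch printed for Nfkb2 lies in an exon of a longer GENCODE transcript. The motif TGACGTCA, which is the full cyclic AMP response element, was looked up after the Birc2 sequence was seen. It was absent from the windows of the other 7 genes and was present in 2.03% of all genes with a window. These matches are letters in a window, not measured binding.

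Birc2 was the only member whose transcript changed by the test, and it rose in KO Tregs. Of the 10 members 1 passed, upward, and 0 passed downward, against 6.5% of all 13626 genes tested (edgeR quasi-likelihood test, adjusted p under 0.05). Of all genes 3.68% passed upward and 2.83% downward, so 1 call among 10 members is close to the background. DESeq2 also called Birc2 alone among the members, and 7.75% of all genes. The CPM ranges of the groups did not overlap for Relb, Birc2 and Traf1, all higher in KO, against 26.3% of all genes, 13.7% higher and 12.6% lower. CPM is the count scaled to a common library size with TMM factors. The median log2 fold change of the members, KO minus WT, was 0.06, and that of all genes was 0.00, with 8 of 10 members above 0. Member counts ran from 1495 to 10594 reads per library, so no member was near 0. How much of the spread between libraries came from counting was not tested. In bulk RNA, fewer cells of a type and less RNA per cell cannot be told apart.

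**Figure D1:**
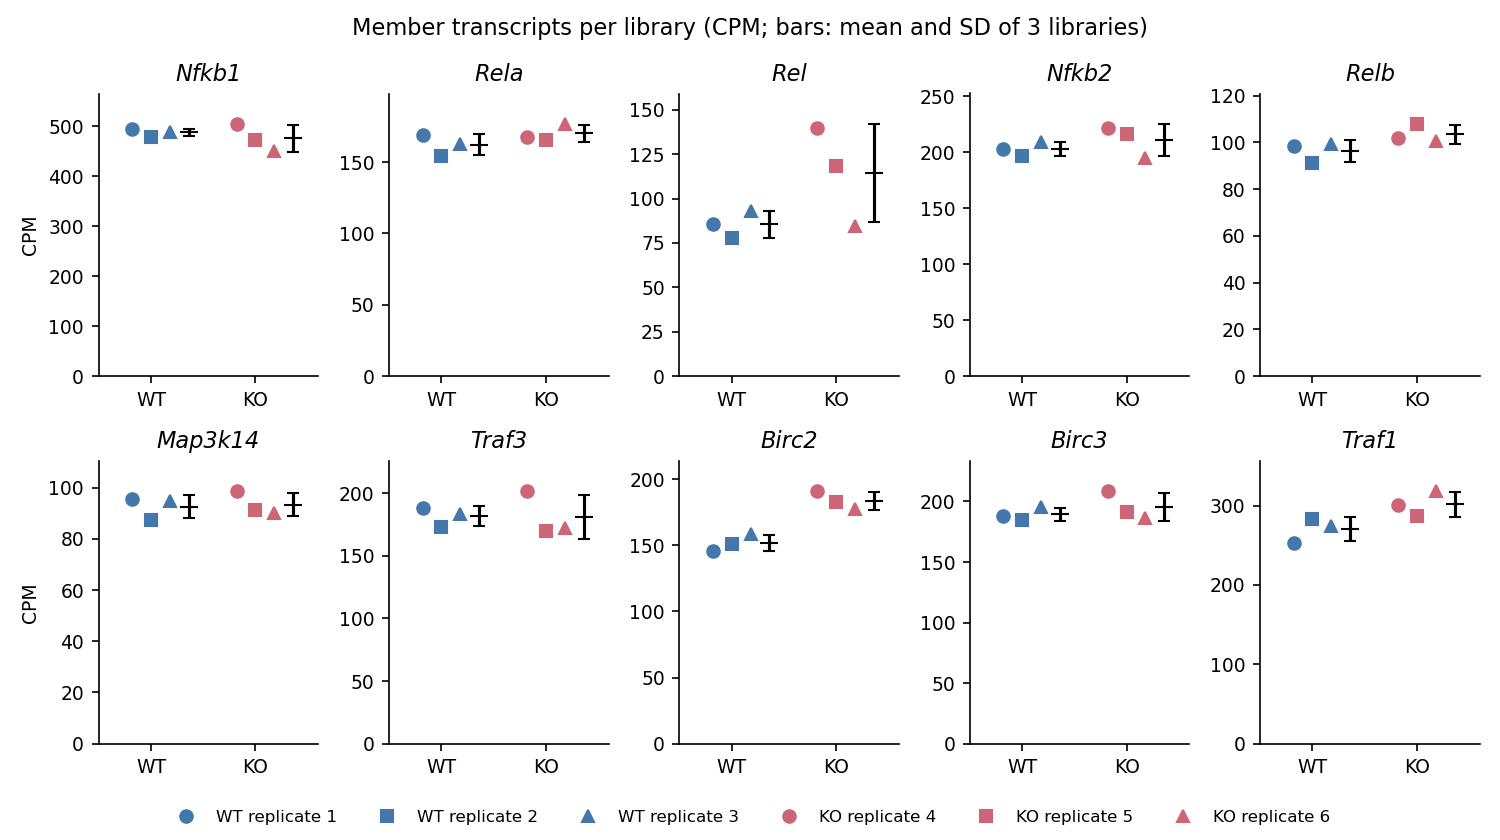
CPM of each member (vertical axes from 0) in the 3 WT (blue) and 3 KO (red) libraries, 1 symbol per replicate, with the mean and SD as a black bar. All KO points lie above all WT points for Birc2, Traf1 and Relb, and Rel in KO runs from 84.7 CPM in replicate 6, inside the WT range, to 139.8 CPM in replicate 4.

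The libraries held 18071928 to 21165063 counts. The cells carried the defining Treg transcripts, with all 7 markers detected and Foxp3 at a mean of 791 CPM. Among them Cd4, Il2ra and Tnfrsf18 encode the proteins used for the sort, so their detection adds little. The Treg markers summed to 3860 to 4466 CPM in WT and 4627 to 4874 CPM in KO, and 1 of them, Ctla4, rose. Il33 had 7, 0 and 9 reads in WT and 3, 8 and 2 reads in KO, too few to test or to check the labels. Of 19 B cell markers 18 were matched, none was at 0, and 0 were called in either direction. Their summed level in WT was 5341 CPM in replicate 1, 2271 CPM in replicate 2 and 4303 CPM in replicate 3. In KO it was 1667 to 2171 CPM, so WT replicate 2 stands apart from the other WT libraries. The 12 dendritic cell and macrophage markers summed to 51.8 to 80.4 CPM in WT and 39.1 to 58.4 CPM in KO. Clec9a and Cd209a were at or near 0. Of the 10 markers tested 2 fell, Lamp3 and Siglech, and 0 rose. Lamp3 was also near 0, with 28, 10 and 24 reads in WT and 4, 6 and 1 in KO. Not all markers were lower in KO, as Zbtb46 had 74, 43 and 54 reads in WT and 87, 74 and 47 in KO. The CD8 T cell markers summed to 32.7 to 36.3 CPM in WT and 22.3 to 31.0 CPM in KO, and the NK cell markers to 5.51 to 7.21 CPM and 3.29 to 5.14 CPM, lower in every KO library with 0 of 4 genes called. Stroma and endothelium markers summed to 209.5 to 228.4 CPM in WT and 244.5 to 255.3 CPM in KO. Melanoma markers summed to 20.7 to 27.6 CPM in WT and 28.8 to 33.8 CPM in KO. Both sums were higher in every KO library and came almost all from 1 gene each, Pecam1 and Pmel, which rose. Of the other melanoma markers, Tyrp1, Dct and Tyr had 0 reads in every library and Mlana had 0 to 3. B cells and dendritic cells also use NF-kB. Their part in the values below was not tested beyond the settings named.

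The cIAP genes Birc2 and Birc3 lie next to each other on the minus strand of chromosome 9, and only Birc2 passed the test. Their products attach ubiquitin to NIK in the non-canonical arm and to RIPK1 in the canonical arm. Birc2 (ENSMUSG00000057367, 7818227 to 7837064 on GRCm38) had 145.7, 151.0 and 158.2 CPM in WT replicates 1, 2 and 3. In KO, replicates 4, 5 and 6 had 190.7, 182.7 and 177.3 CPM. Every KO library lay above every WT library. The log2 fold change was 0.28 (SE 0.06, 95% interval 0.15 to 0.40), a rise of 21.1%, with an edgeR adjusted p of 0.0122.

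The change in Birc2 was of similar size under every setting tried, from 0.25 to 0.31 on the log2 scale over 18 alternatives, of which 15 passed. It missed the threshold without WT replicate 1 (0.25, edgeR adjusted p = 0.0603). Without WT replicate 2, whose B cell marker signal was close to that of KO, it was 0.28 with an edgeR adjusted p of 0.0163. When a B cell score, the average of log2 CPM over the markers, was added to the model it was again 0.28 but with an SE of 0.11 and an adjusted p of 0.357. Without WT replicates 1 and 3 together, the libraries with most B cell signal, it was 0.28 with an adjusted p of 0.180.

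Birc3 (ENSMUSG00000032000, chromosome 9, 7848699 to 7873186), the cIAP gene that NF-kB induces, had 188.3, 184.8 and 195.2 CPM in WT and 208.4, 191.7 and 186.8 CPM in KO. The ranges overlapped, with KO replicate 4 highest and KO replicates 5 and 6 inside the WT range. Its log2 fold change was 0.05, and in the main fit the 95% interval from -0.08 to 0.17 leaves out a rise as large as the 0.28 estimated for Birc2. With the B cell score in the model the change in Birc3 was 0.09 (SE 0.11), and that fit does not leave out such a rise. The ratio of Birc2 to Birc3 FPKM, values scaled by gene length, was 1.24, 1.31 and 1.30 in WT and 1.46, 1.52 and 1.52 in KO. All KO libraries had the higher ratio, a description of chosen genes that carries no p-value. Of the 4579 words of 50 bases in the Birc2 transcripts 1.49% also occur in transcripts of other genes, 65 of those 68 in Birc3. How reads from such stretches were counted was not tested. For Birc3 7.56% of such words are shared, most with the gene Gm7019.

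The canonical subunit genes gave no call, and Rel differed between KO libraries more than any other member. Rel (ENSMUSG00000020275, chromosome 11, 23736847 to 23770970), the subunit that lymphocytes induce on antigen receptor signalling, had 85.8, 77.7 and 92.9 CPM in WT replicates 1, 2 and 3. In KO it had 139.8 CPM in replicate 4, 118.5 CPM in replicate 5 and 84.7 CPM in replicate 6. KO replicates 4 and 5 were above every WT library and KO replicate 6 was inside the WT range. The coefficient of variation in KO was 24.3% for Rel, against 3.50% to 9.66% for the other 9 members, and in WT it was 8.86% against at most 5.69%.

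The estimated change in Rel was a log2 fold change of 0.42, the largest estimate among the members, but its SE was 0.20 and its 95% interval ran from -0.11 to 0.95. It did not pass (edgeR adjusted p = 0.330). Without KO replicate 6 it was 0.60 (SE 0.09) and passed, with an edgeR adjusted p of 0.0102. Leaving out KO replicate 4 instead gave 0.25, which did not pass. It was 0.71 with an SE of 0.36, again without passing, when the B cell score was in the model.

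Nfkb1 (ENSMUSG00000028163, chromosome 3, 135584655 to 135691547), which encodes the most abundant subunit transcript here, had 494.8, 479.3 and 488.5 CPM in WT. KO replicates 4, 5 and 6 had 504.9, 471.9 and 449.8 CPM, so the KO libraries lay on both sides of WT. Its log2 fold change was -0.04, with a 95% interval from -0.15 to 0.08. Rela (ENSMUSG00000024927, chromosome 19, 5637483 to 5648130), the main activating subunit of the canonical arm, had 169.1, 154.5 and 162.7 CPM in WT and 167.6, 165.7 and 176.8 CPM in KO. Its ranges overlapped, and the log2 fold change was 0.07 (95% interval -0.05 to 0.19). In the main fit the interval of both genes leaves out a change of 0.20 or more in either direction on the log2 scale. With the B cell score in the model the errors were wider, at 0.14 (SE 0.11) for Rela and 0.02 (SE 0.10) for Nfkb1. That fit does not leave out such a change.

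**Figure D2:**
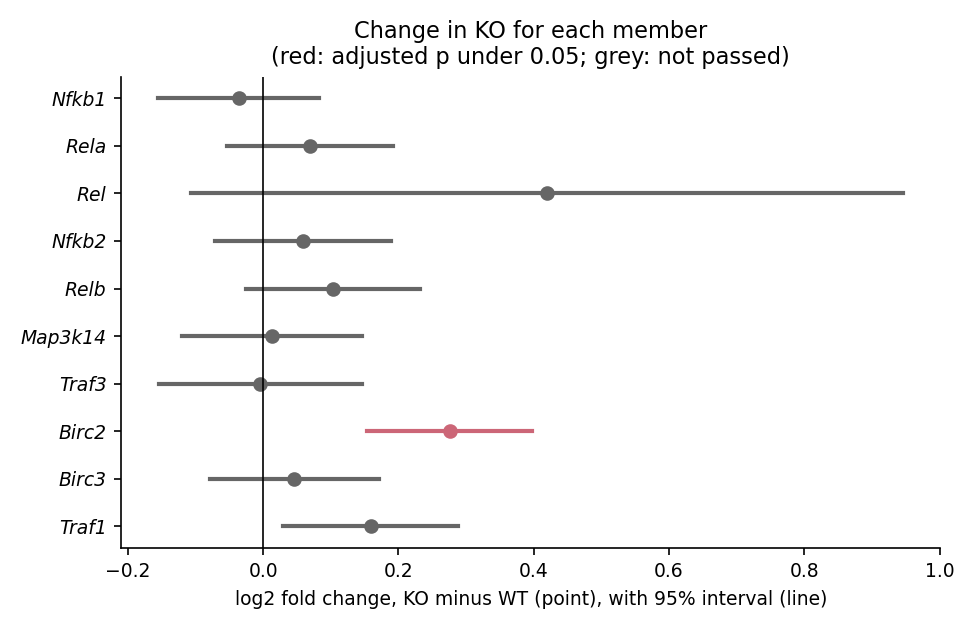
Log2 fold change, KO minus WT, of each member (points, horizontal axis) with its 95% interval from the edgeR fit (lines); red marks an adjusted p under 0.05 and grey the rest. Birc2 at 0.28 is the only red point, and the interval of Rel, from -0.11 to 0.95, is the widest.

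The non-canonical subunit genes and the kinase that activates them gave no call either. Nfkb2 (ENSMUSG00000025225, chromosome 19, 46304320 to 46312385) had 202.6, 196.5 and 208.7 CPM in WT and 221.7, 216.5 and 194.95 CPM in KO. KO replicates 4 and 5 were above WT and KO replicate 6 was below it, and the log2 fold change was 0.06 (95% interval -0.07 to 0.19). Relb (ENSMUSG00000002983, chromosome 7, 19606217 to 19629438), the partner of the trimmed Nfkb2 product, had 98.4, 91.1 and 99.3 CPM in WT and 101.7, 107.9 and 100.6 CPM in KO. All KO libraries were above all WT libraries by a small margin, and the log2 fold change of 0.10 (95% interval -0.03 to 0.23) did not pass (edgeR adjusted p = 0.354). Map3k14 (ENSMUSG00000020941, chromosome 11, 103219762 to 103267472), the gene of NIK, had 95.4, 87.3 and 94.96 CPM in WT and 98.6, 91.4 and 90.3 CPM in KO. Its log2 fold change was 0.01, with a 95% interval from -0.12 to 0.15. NIK is controlled mainly by the breakdown of its protein, which RNA does not show.

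Nfkb2 and Rela share a chromosome with the deleted Il33 locus, at 16.3 and 24.3 Mb from it. The Nfkb2 exons overlap those of AC114539.1 by 531 bases and those of Psd by 299 bases, both on the other strand. The sources used here do not say whether strand was used in counting, so reads from those stretches cannot be told apart. The Map3k14 exons share 135 bases with those of 1700028N14Rik on the same strand, where strand would not separate the reads.

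Of the adaptor genes, Traf1 was higher in every KO library without passing the test, and Traf3 showed no shift. Traf3 (ENSMUSG00000021277, chromosome 12, 111166370 to 111267153), whose product brings NIK to the cIAPs, had 188.4, 173.1 and 183.6 CPM in WT and 201.4, 169.99 and 172.3 CPM in KO. KO replicate 4 was the highest library of all and KO replicates 5 and 6 were the lowest of all. The log2 fold change was -0.00 (95% interval -0.15 to 0.15). Traf1 (ENSMUSG00000026875, chromosome 2, 34941750 to 34961772), an NF-kB target whose product joins TRAF2 and the cIAPs below TNF family receptors, had 253.1, 282.8 and 274.8 CPM in WT. It had 300.2, 286.8 and 317.99 CPM in KO replicates 4, 5 and 6, with WT replicate 2 only just below KO replicate 5.

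The log2 fold change of Traf1 was 0.16 (SE 0.06, 95% interval 0.03 to 0.29), with an unadjusted p of 0.0196 and an edgeR adjusted p of 0.142. It passed in 0 of 18 alternatives. It was 0.11 without WT replicate 1 and 0.01 (SE 0.10) once the B cell score was in the model. The lowest value of Traf1, like that of Birc2, was in WT replicate 1, the library with most B cell signal. The cause was not tested.

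Set on a common length scale, the members spanned about an order of magnitude, and the canonical subunits held most of the subunit transcript. Nfkb1 was highest at 101.6 ± 1.49 FPKM in WT and 98.9 ± 6.06 FPKM in KO (SD, n = 3 each). Below it came Nfkb2, Rela, Traf1 and Birc2, with means over the 6 libraries of 62.6, 60.8, 56.3 and 53.3 FPKM. Neighbours among these 4 overlapped in range. Rela was above Traf1 in 6 of 6 libraries, while Nfkb2 was above Rela, and Traf1 above Birc2, in 4 of 6. Birc3 and Rel followed at 38.3 and 35.5 FPKM and overlapped, then Relb and Traf3 at 25.6 and 24.6 FPKM, where Relb was the higher in 3 of 6 libraries. Map3k14 was lowest at 14.1 FPKM and clear of Traf3 in all libraries. Among 11965 tested genes matched in the FPKM table, Nfkb1 stood at percentile 96.3 and Map3k14 at percentile 63.2.

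**Figure D3:**
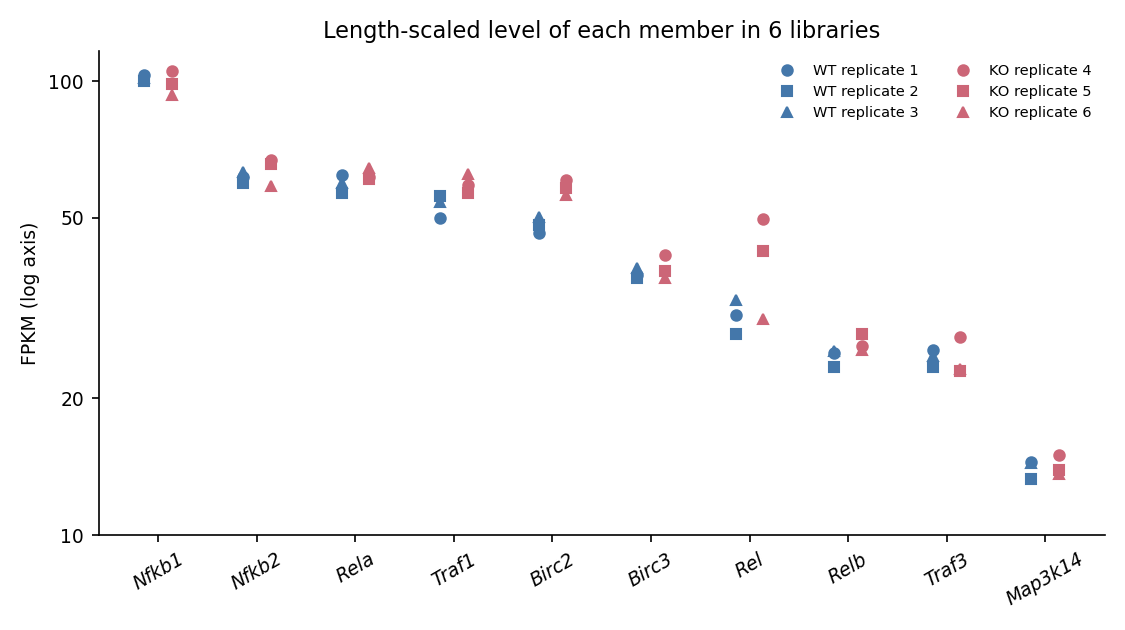
FPKM of the members on a log axis, ordered by their mean, in the WT (blue) and KO (red) libraries with 1 symbol per replicate. Nfkb1 near 100 FPKM is clear of the rest, and Map3k14 near 14.1 FPKM is lowest.

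The share of subunit RNA held by the non-canonical arm differed between the groups by less than the spread between libraries. Nfkb2 and Relb together made up 30.7%, 31.0% and 31.3% of the FPKM of all 5 subunits in WT replicates 1, 2 and 3. The share was 30.1%, 31.7% and 31.0% in KO replicates 4, 5 and 6. The means were 31.0 ± 0.315% and 30.9 ± 0.783% (SD, n = 3 each), a difference of -0.08 percentage points that is smaller than either SD. The summed canonical FPKM was 195.6, 184.6 and 194.3 in WT and 216.4, 201.4 and 187.5 in KO, and the summed non-canonical FPKM was 86.6, 83.0 and 88.6 in WT and 93.2, 93.3 and 84.3 in KO. Both sums were highest in KO replicates 4 and 5, and for both KO replicate 6 was within the WT range.

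Parts of that balance differed more between libraries. Rel took 10.8%, 10.4% and 11.7% of the subunit FPKM in WT and 16.1%, 14.3% and 11.0% in KO. With Rel left out, the non-canonical share was 34.4%, 34.6% and 35.4% in WT and 35.9%, 36.9% and 34.8% in KO, a difference of 1.07 percentage points with overlapping ranges. The ratio of Nfkb2 to Nfkb1 FPKM, the precursor genes of the arms, was 0.595, 0.596 and 0.621 in WT and 0.638, 0.667 and 0.630 in KO. Every KO library had the higher ratio, although neither gene passed alone. The ratio of Relb to Rela was 0.407, 0.412 and 0.427 in WT and 0.424, 0.455 and 0.398 in KO, with overlapping ranges. These ratios were formed from genes chosen with results known and are given without p-values.

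**Figure D4:**
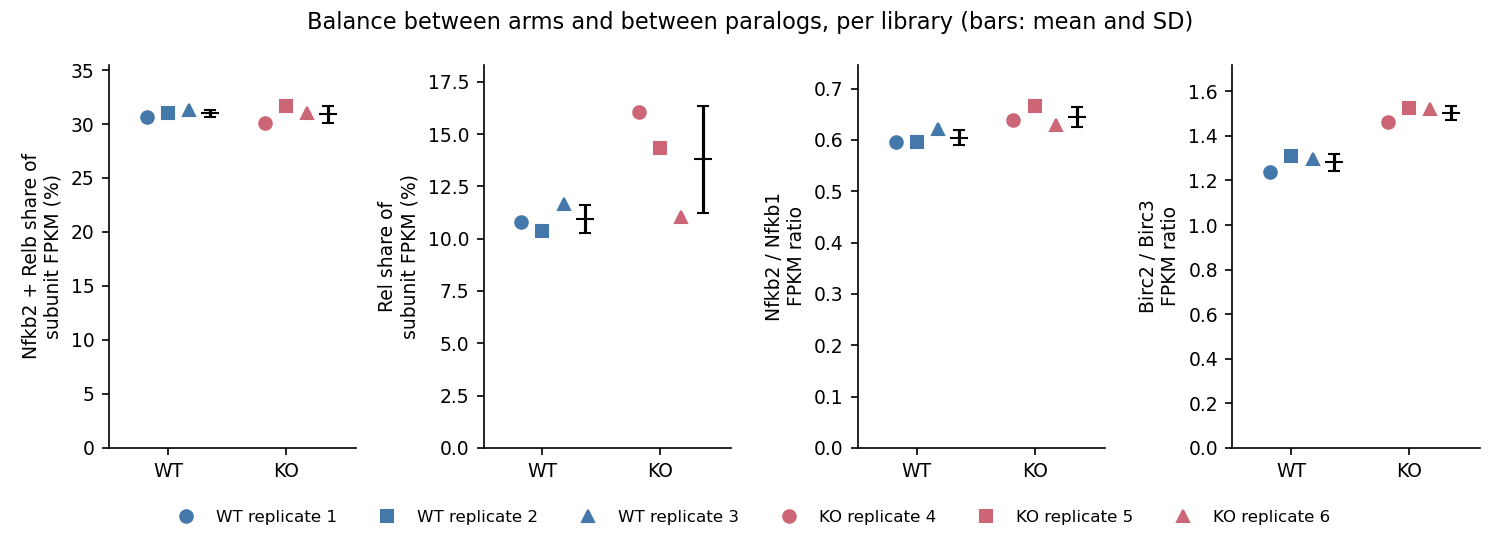
Share of subunit FPKM held by Nfkb2 and Relb and by Rel (percent), and the FPKM ratios of Nfkb2 to Nfkb1 and of Birc2 to Birc3, in each library, with vertical axes from 0 and bars for the mean and SD. The non-canonical share is near 31.0% in both groups, and the Birc2 to Birc3 ratio is at least 1.46 in each KO library and at most 1.31 in WT.

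Elsewhere in the pathway, 5 of the 9 genes that rose were in the list of IkB proteins and related inhibitors. Of 65 tested genes in 4 lists 9 rose, 2 fell and 54 did not pass, with a median log2 fold change of 0.06. Among the 13626 genes tested 3.68% rose and 2.83% fell, and their median was 0.00. Of 23 IKK and canonical signalling genes 0 rose and 1 fell (all genes 3.68% and 2.83%), with a median of 0.01, so 1 call is close to the background. The gene that fell was Ikbkb, which encodes the catalytic kinase of the canonical IKK complex. It had 450.4, 405.1 and 410.4 CPM in WT and 375.7, 338.1 and 365.0 CPM in KO, which is -0.23 on the log2 scale (SE 0.06) with an edgeR adjusted p of 0.0376. All KO libraries were below WT. The call was lost in 4 of 6 fits that left out 1 library (WT replicates 1 and 3, KO replicates 5 and 6), where the edgeR adjusted p reached 0.176, and Ikbkb passed in 7 of 18 alternatives in all. It also missed the threshold with limma-voom (0.0574), with upper-quartile factors (0.0610) and with limma on the log2 normalized counts (0.0524) or on FPKM with a pseudocount of 1 (0.0947) or 0.1 (0.0914). Chuk, the kinase gene of the non-canonical IKK, had a log2 fold change of -0.09, and Traf2, which bridges Traf3 to the cIAPs, one of 0.09. Neither passed, and both were chosen after their values were seen.

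Of 11 genes for IkB proteins and related inhibitors 5 rose and 0 fell (all genes 3.68% and 2.83%), with a median of 0.20. The list mixes inhibitors with the nuclear IkB genes Nfkbid and Nfkbiz, whose products can also activate transcription. Nfkbia, the IkB gene that NF-kB itself induces, had 397.4, 541.3 and 491.8 CPM in WT and 934.8, 868.1 and 848.9 CPM in KO. Nfkbid, a nuclear IkB gene that acts with Rel in Treg development, had 144.2, 157.7 and 166.0 CPM in WT and 243.4, 268.1 and 239.1 CPM in KO. In both, KO replicate 6 lay far above WT, unlike Rel in that library. Nfkbiz and Nfkbie also passed, with log2 fold changes of 0.68 and 0.27, as did Tnip1 at 0.20, which was named after its value was seen. Tnfaip3, also named afterwards, had 275.4, 540.5 and 482.8 CPM in WT and 1587, 1333 and 1234 CPM in KO, with an edgeR adjusted p of 0.0613. Nfkbie lost its call without WT replicate 3, KO replicate 5 or KO replicate 6 and Nfkbiz without KO replicate 5, where the edgeR adjusted p reached 0.0848 and 0.0505. With the B cell score in the model, Nfkbid alone of the 13 other genes named by rule still passed, at 0.69. The log2 fold change of Nfkbia was then 0.61 (SE 0.13, edgeR adjusted p = 0.0530), that of Nfkbiz 0.57 (SE 0.19, 0.354) and that of Nfkbie 0.33 (SE 0.11, 0.268), beside SEs of 0.11, 0.11 and 0.06 without the score.

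Of 12 TNF receptor family genes 2 rose and 1 fell (all genes 3.68% and 2.83%), with a median of 0.05. The list includes Tnfrsf18, whose product GITR was used for the sort. Tnfrsf9, which encodes 4-1BB, had 110.4, 135.0 and 127.7 CPM in WT and 164.2, 166.8 and 170.9 CPM in KO, and Tnfrsf4, the gene of OX40, had 266.6, 302.6 and 285.5 CPM in WT and 334.0, 335.0 and 340.5 CPM in KO. Both receptors recruit TRAF proteins, and both genes were higher in each KO library. Tnfrsf13b, the gene of TACI, had 99.96, 87.9 and 98.3 CPM in WT and 74.4, 76.3 and 77.1 CPM in KO and fell, with a log2 fold change of -0.33. B cells express TACI too, and once the B cell score was in the model its log2 fold change was -0.18 (edgeR adjusted p = 0.597), while that of Tnfrsf9 was 0.23 (0.465) and that of Tnfrsf4 was 0.11 (0.766). The widest differences in this list were in the receptor genes Tnfrsf13c and Cd40, which B cells express strongly and which were picked out after their values were seen. Tnfrsf13c had 49.7, 15.6 and 40.95 CPM in WT and 7.57 to 12.1 CPM in KO, and Cd40 had 19.4, 7.54 and 17.3 CPM in WT and 5.09 to 6.34 CPM in KO. Neither passed, and both were lowest among WT libraries in replicate 2, as the B cell markers were. Tnfrsf4 lost its call in 4 of 6 fits that left out 1 library (WT replicates 1 and 3, KO replicates 5 and 6, edgeR adjusted p up to 0.125) and Tnfrsf13b without WT replicate 3 (0.0539).

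Of 19 further textbook target genes tested 2 rose and 0 fell (all genes 3.68% and 2.83%), with a median of 0.12. Lta, which encodes lymphotoxin, a ligand of the TNF family, had 84.6, 83.3 and 79.6 CPM in WT and 112.95, 95.5 and 105.2 CPM in KO. Icam1, an adhesion molecule gene, had 97.5, 97.2 and 96.6 CPM in WT and 114.9, 123.8 and 112.3 CPM in KO. Their log2 fold changes were 0.34 and 0.27, and 0.29 and 0.32 with SEs of 0.12 and 0.11 when the B cell score was in the model, where neither passed. Lta lost its call without WT replicate 3 (edgeR adjusted p = 0.0676). Icam1 lost it in the fits without WT replicates 1 and 3 and KO replicate 5, where the edgeR adjusted p reached 0.0774.

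**Figure D5:**
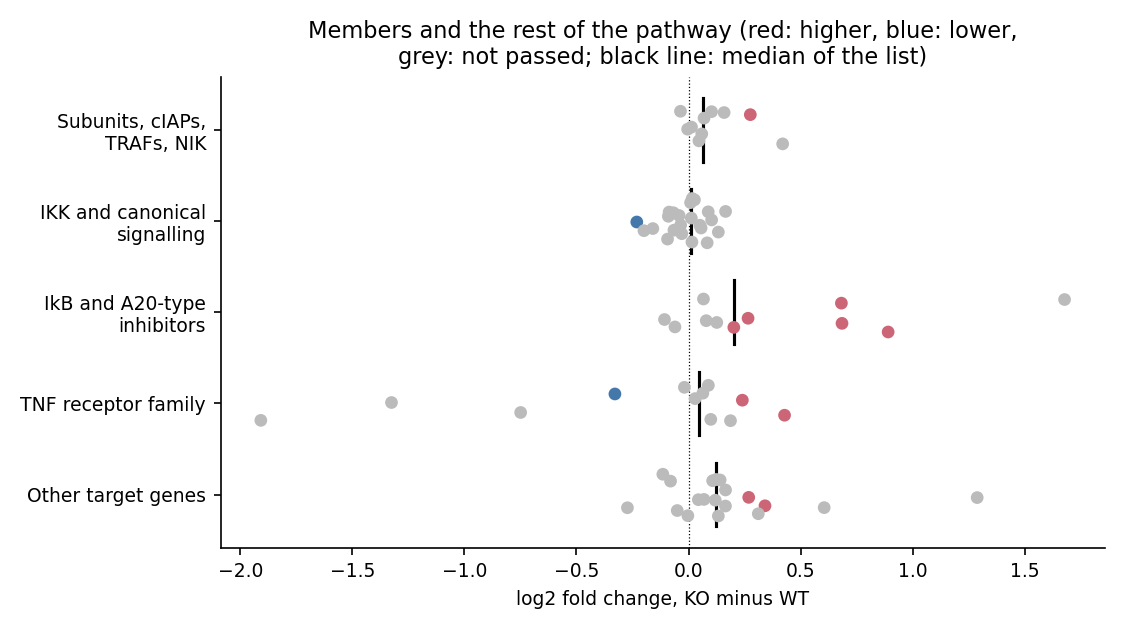
Log2 fold change, KO minus WT, of the members and of 4 lists of other pathway genes (1 point per gene; vertical position within a list is arbitrary), with red for higher, blue for lower and grey for not passed, and a black line at each list's median. The inhibitors, with a median of 0.20, hold 5 of the red points and the members 1.

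The genes whose profile over the 6 libraries was most like that of Birc2 were Bcl11b, Fbxo32 and F730043M19Rik. Likeness was the root mean square difference of log2 CPM, each gene centred on its own mean, among 8977 other genes with a mean of at least 10 CPM. It was 0.0186 for Bcl11b, 0.0285 for Fbxo32 and 0.0296 for F730043M19Rik. Because the genes were picked for this likeness, fold changes close to that of Birc2 follow from the choice. Bcl11b, a transcription factor gene of the T lineage, had 549.7, 592.8 and 617.3 CPM in WT and 743.6, 707.4 and 690.6 CPM in KO, a log2 fold change of 0.28 (edgeR adjusted p = 0.0111). Like Birc2 it lost its call without WT replicate 1 (0.0589), which the choice by profile also makes likely. Fbxo32, which encodes a subunit of a ubiquitin ligase, had a log2 fold change of 0.31 and lost its call in 5 of 6 fits that left out 1 library, all but that without WT replicate 2, and its edgeR adjusted p then reached 0.110. F730043M19Rik, at a log2 fold change of 0.23, did not pass (edgeR adjusted p = 0.107), nor in any of 18 alternatives.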

How the data were processed

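RNA was measured in 6 libraries of sorted Tregs. Per the submitters' processing notes, tools included bcl2fastq, STAR 2.4.2a and DESeq2, on GRCm38; counting tool, strand use and annotation: not given in the sources used here. Deposited by the authors were raw counts per Ensembl gene, normalized counts (a signal: counts divided by 1 factor per library) and FPKM (normalized counts divided by a constant per gene); all 10 members fulfilled both relations within 1e-06.

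Raw counts were tested with edgeR 4.0.16 (R 4.3.3): filterByExpr, TMM, robust glmQLFit and glmQLFTest, two-sided, Benjamini-Hochberg adjustment over 13626 genes, threshold 0.05. SE and intervals derive from the F statistic. The fit was tested on simulated data. Symbols and positions came from GENCODE M21 (35412 of 37187 IDs), promoters from RefSeq. No libraries were duplicates: chi-square over degrees of freedom within groups was at least 5.16. Alternatives were DESeq2 1.42.0, limma 3.58.1 (voom, and log2 values with pseudocounts of 1 or 0.1), other factors and filters, left-out libraries and a B cell covariate. Named were the members, up to 4 called genes per list with the smallest p, and the 3 profiles nearest a called member. The members, lists and alternatives were chosen with earlier results of these data known.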

Additional observations from a re-analysis of the deposited data

How the results depend on the processing

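The count of called members was 1 in the main fit and under the 10 alternatives of tool, scaling, filter and unit. It was 0 to 2 when single libraries were left out (0 without WT replicate 1, 2 without KO replicate 6). The count fell to 0 when the B cell score was in the model and 0 without WT replicates 1 and 3 together. No paired analysis was possible because the labels give no pairing or batch. Over all genes the 886 calls became 1645 with no filter, 374 with limma on log2(FPKM + 1), 383 on log2(FPKM + 0.1), 77 with the B cell score, 282 without WT replicates 1 and 3, and 367 to 1364 when single libraries were left out. The split of 501 higher and 385 lower became 545 and 617 with DESeq2 and 593 and 323 with upper-quartile factors. The 11 pathway calls became 1 with the B cell score, 5 without WT replicates 1 and 3, and 4 to 15 without single libraries (4 without WT replicate 3, 5 without KO replicate 5, 7 without KO replicate 6). The B cell score differs between the groups, which widens the errors. The difference in non-canonical share was -0.45 to 0.33 percentage points without single libraries and 1.07 with Rel left out. Signs turned only for members near 0. The log2 fold change of Traf3 was 0.0188 with upper-quartile factors, 0.0830 with the B cell score, 0.0669 without WT replicates 1 and 3 and -0.0852 to 0.0419 without single libraries. That of Nfkb1 was 0.0185 with the B cell score. Without single libraries Nfkb1 ran from -0.0798 to 0.00453, Map3k14 from -0.0259 to 0.0393 and Birc3 from -9.52e-05 to 0.0807. The cause of these changes was not tested. Of 13 other genes named, 1 passed with the B cell score and 3 without WT replicates 1 and 3.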

Other observations

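KO replicate 4 had the highest CPM of all 6 libraries for 7 of the 10 members, and WT replicate 2 the lowest for 5 of them. Among all tested genes, KO replicate 4 was the highest of the 6 libraries for 17.6% and WT replicate 2 the lowest for 17.1%. The members that did not peak there were Relb, highest in KO replicate 5, and Rela and Traf1, highest in KO replicate 6. Leaving out KO replicate 6 put the log2 fold changes of all 10 members above 0, with a median of 0.10, while leaving out KO replicate 4 put 6 of 10 above 0, with a median of 0.05. With the B cell score in the model all 10 were also above 0, with a median of 0.13. Relb was then 0.24, Nfkb2 0.16 and Map3k14 0.13 (SE 0.11 each), while Traf1 was 0.01. No member passed in that fit.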
